A study of Homo sapiens with 21 samples.

Results

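The transcriptome of A673 cells rescued with DAF-mut9 was compared with that of cells rescued with DAF, which asked which activity that DAF still has is lost in a short EWS domain with every repeat tyrosine substituted. The members were taken from the sample labels. They are 3 DAF libraries and 3 DAF-mut9 libraries, 6 of the 21 libraries in the series. A673 is an established Ewing sarcoma cell line, and every value here comes from this 1 line. In both groups a short hairpin RNA (iEF) depleted the endogenous fusion on day 1, a cDNA in a pMSCV-hygro retroviral vector followed on day 5, and cells were selected with 2 µg/ml puromycin and 400 µg/ml hygromycin until day 16. The DAF cDNA encodes full-length EWS/FLI with tyrosines of the N-terminal EWS repeats changed to alanine and the SYGQ2 stretch intact. The DAF-mut9 cDNA carries only the first and last stretches of EWS, with all repeat tyrosines that remain there changed to alanine, so it has neither an intact SYGQ1 nor SYGQ2. Both proteins carry an N-terminal 3×FLAG tag and the FLI portion. The other groups, each of 3 libraries, were used to class or place genes: iLuc (hairpin against luciferase with empty vector, which keeps the endogenous fusion), iEF (depleted cells with empty vector), WT-EF (depleted, full-length fusion), mut9 (depleted, shortened EWS with its tyrosines), and Δ22 (depleted, fusion without the EWS domain). The cultures were mixed populations selected with drugs, and replicates 1, 2 and 3 were separate knockdown and rescue experiments of the study. The mut9d columns of the count table were assigned to DAF-mut9, since mut9 has columns of its own, and all DAF-mut9 levels rest on that assignment.

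EWS/FLI joins the disordered, repeat-rich N-terminal part of EWS to the ETS DNA-binding domain of FLI1. Such fusions bind single ETS motifs and also runs of GGAA repeats that are silent in most other cells, where the EWS part recruits coactivators and RNA polymerase and the tyrosines of its repeats drive self-association. The fusion also lowers many genes of mesenchymal cells, which return when it is depleted.

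Library totals were 38.8, 36.0 and 32.9 M counts for DAF replicates 1 to 3 and 41.1, 38.7 and 37.9 M for DAF-mut9, within the 32.9 to 46.2 M of the whole series. Levels are given as CPM, the usual depth-scaled counts, after TMM adjustment of library size. Across genes, which are not independent replicates, replicates correlated at r = 0.987 to 0.990 within DAF and 0.992 to 0.995 within DAF-mut9, and every pair differed by more than counting noise. Reads of the rescue cDNAs fall on FLI1 (ENSG00000151702; GRCh37 chromosome 11, 128556430 to 128683162), which was at 36.2, 39.8 and 35.1 CPM in DAF and at 34.6, 37.04 and 37.3 CPM in DAF-mut9. The ranges overlapped, and the log2 fold change, DAF-mut9 minus DAF, was -0.03 ± 0.13 (SE) with an adjusted p of 0.991. Depleted cells (iEF) had 20.6 ± 0.553 CPM of FLI1, and iLuc cells 70.3 ± 16.2 CPM (SD, n = 3). EWSR1, which also counts the intact EWS allele, differed by -0.11 ± 0.09 (adjusted p 0.869). RNA levels do not give the amount of either protein. Of 8 Ewing sarcoma markers tested, CD99 was near 0 in all 6 libraries (10 counts in total) and checks nothing, and 3 (PRKCB, NR0B1 and STEAP1) were lower in DAF-mut9. The summed level of the whole marker list was 280 to 361 CPM in DAF and 121 to 156 CPM in DAF-mut9. PRKCB (36.1 to 164 CPM over the 6 libraries) and STEAP1 (41.6 to 98.3 CPM) carried most of that sum and of its fall. BCL11B (27.9 to 44.7 CPM), LIPI (7.76 to 16.1 CPM), XG and NKX2-2 were not called. No tested marker of epithelial (8 genes), blood (5), endothelial (6), fibroblast (10) or kidney packaging cells (5) was called, beside 0.871% of all genes. At that share lists this short can hold no call, and an uncalled marker can still be expressed. Kidney packaging markers summed to 108 to 125 CPM in DAF and 113 to 137 CPM in DAF-mut9. Epithelial markers summed to 75.6 to 93.9 CPM in DAF and 65.9 to 79.35 CPM in DAF-mut9. Endothelial markers summed to 30.9 to 59.2 CPM in DAF and 50.8 to 61.1 CPM in DAF-mut9. CD3E and HBB had 0 counts, PAX2 was too low to be tested, and PECAM1, LHX1 and NEFL were not analysed here. Blood markers summed to 3.59 to 3.98 CPM in DAF and 2.11 to 2.80 CPM in DAF-mut9.

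Most genes that differed were lower in DAF-mut9 than in DAF, and most of these lay above depleted cells with DAF. Of 30549 genes tested, 266 (0.871%) differed between the groups at an adjusted p below 0.05 by edgeR's quasi-likelihood test, with 197 (0.645%) lower and 69 (0.226%) higher in DAF-mut9. The lower genes changed more: their median log2 fold change was -1.46, a 2.74-fold difference, against 0.87, or 1.83-fold, for the higher genes. Among the lower genes 141 (71.6%) differed by over 2-fold and 57 by over 4-fold, whereas 25 (36.2%) and 3 of the higher genes did. Each of the 266 genes kept 1 direction across the 3 sets. The DAF and DAF-mut9 libraries did not overlap for 265 of the 266, a separation that the test itself favours, and for 4940 of the 30549 tested genes. Sequencing of bulk RNA cannot tell fewer expressing cells from less RNA per cell.

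**Figure D1:**
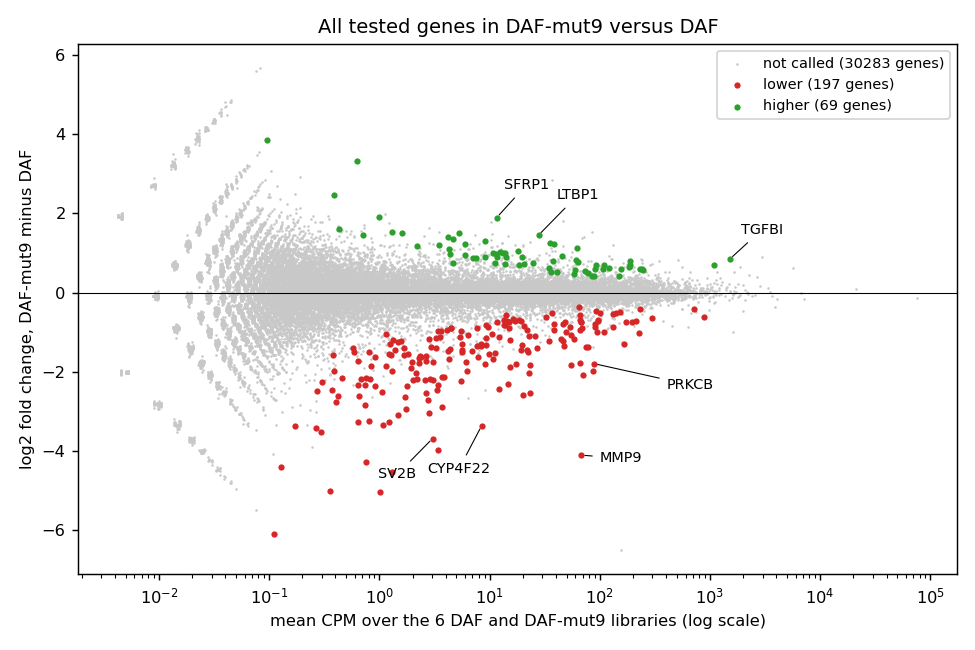
Each point is 1 of 30549 tested genes, with the mean CPM of the 6 libraries on a log x axis and the log2 fold change, DAF-mut9 minus DAF, on the y axis. The 197 red points (lower) reach further from 0 than the 69 green points (higher), and grey points were not called.

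The number of calls in DAF-mut9 versus DAF depended on the model. It was 154 (21 higher, 133 lower) with no replicate block, 519 (199 higher, 320 lower) with DESeq2, and 1479 (730 higher, 749 lower) when only the 6 libraries entered the fit, while none of the 266 genes turned sign in any of 13 other fits that tested it. Dropping DAF-mut9 replicate 1, 2 or 3 left 112, 110 and 158 calls, and dropping DAF replicate 2 left 138.

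To place the called genes, each was classed by the effect of the endogenous fusion, iLuc against iEF, groups outside the 6 libraries. The spread estimate, scaling and replicate terms came from the fit of all 21 libraries, so class and call are not fully independent. The comparison of iLuc with iEF called 12525 genes (41%), 5697 activated (18.6%) and 6828 repressed (22.4%). Of the 197 genes lower in DAF-mut9, 135 (68.5%, 95% Wilson interval 61.7% to 74.6%) were activated by the endogenous fusion, 36 (18.3%) were repressed by it and 26 were not called. Of the 69 higher genes, 61 (88.4%, 78.8% to 94.0%) were repressed by it, 5 were not called, and only ETV1, SLAIN1 and TMEM100 were activated. SLAIN1, a microtubule plus-end protein, was at 119, 127 and 125 CPM in DAF and 183, 196 and 179 CPM in DAF-mut9 (0.58 ± 0.11, adjusted p 0.00386). These intervals cover counting error only, since genes are not independent. Expressed genes are called more often in any comparison, so the shares were also taken among genes of at least 1 CPM: 122 of 168 lower genes (72.6%) were activated against 27.7% of all such genes, and 56 of 62 higher genes (90.3%) were repressed against 31.6%. WT-EF against iEF called 8568 genes (28%), 3448 higher (11.3%) and 5120 lower (16.8%), and gave similar classes, with 134 of the lower genes (68.0%) activated and 59 of the higher genes repressed by the full-length cDNA.

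Seen from the other side, few fusion-regulated genes were involved. Of the 5697 genes activated by the endogenous fusion, 2.37% were lower in DAF-mut9 than in DAF and 0.0527% were higher. Of the 6828 repressed genes, 0.893% were higher and 0.527% lower. The median within-set difference, DAF-mut9 minus DAF in log2 CPM, was -0.03 ± 0.04 over activated genes and 0.04 ± 0.03 over repressed genes (SD, n = 3 replicate sets), beside -0.00 ± 0.01 over all tested genes, so both class medians were about the size of the spread between sets. With classes taken from WT-EF the medians were -0.06 ± 0.04 and 0.06 ± 0.04.

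The share of genes called lower varied with the size of the effect of the endogenous fusion, but not in step with it. Among 432 genes that the endogenous fusion raised by a log2 fold change of 3 to 4, 44 (10.2%) were lower in DAF-mut9 and 0 were higher, and the median difference was -0.24 ± 0.15. In the more strongly activated bins the share called lower was smaller again, at 5.66% with a median of -0.14 ± 0.17 for a log2 fold change of 4 to 5 and at 4.86% with a median of -0.03 ± 0.05 above 5. The set medians above 5 were 0, 0 and -0.09. The bins were not limited by level, and a gene with 0 counts in both groups cannot be called. Whether low levels hold down the shares of these bins was not tested. The bins 0 to 1, 1 to 2 and 2 to 3 held 21, 27 and 22 of the lower genes. Above a log2 fold change of 2 no gene was higher. Among 849 genes that the endogenous fusion lowered by more than 5 on the log2 scale, 15 were higher and 2 lower, with a median of 0.25 ± 0.11.

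**Figure D2:**
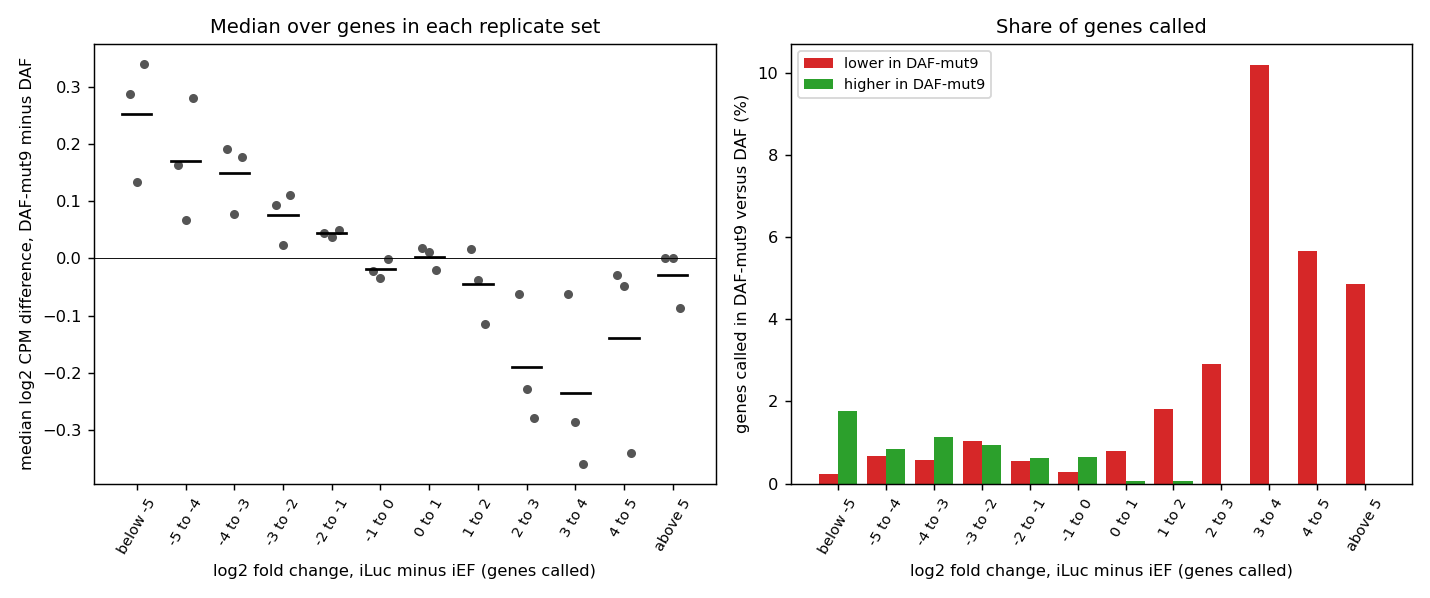
Genes called in iLuc against iEF are binned by that log2 fold change (x axis). On the left, points are the median log2 CPM difference, DAF-mut9 minus DAF, in each of 3 replicate sets and short lines their mean; on the right, bars give the percentage of genes in each bin called lower (red) or higher (green), which peaks at 10.2% lower for bin 3 to 4.

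The called genes were then followed across the other constructs, as the median log2 CPM difference from iEF in each replicate set. The 197 lower genes stood above iEF by 1.57 ± 0.08 in iLuc, 1.42 ± 0.04 in WT-EF and 1.72 ± 0.19 in mut9 (SD, n = 3). They were chosen for their difference between DAF, at 1.54 ± 0.14, and DAF-mut9, at 0.16 ± 0.05, so these last values are a description. Δ22, which lacks EWS, stood at 0.12 ± 0.06. The 69 higher genes were below iEF by medians of -2.18 ± 0.24 in iLuc, -1.53 ± 0.12 in WT-EF and -1.12 ± 0.17 in mut9. DAF lay at -0.68 ± 0.06, DAF-mut9 at 0.19 ± 0.02 and Δ22 at 0.08 ± 0.06. The iEF libraries are shared by all these values, and medians over all tested genes lay between -0.01 and 0.03.

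**Figure D3:**
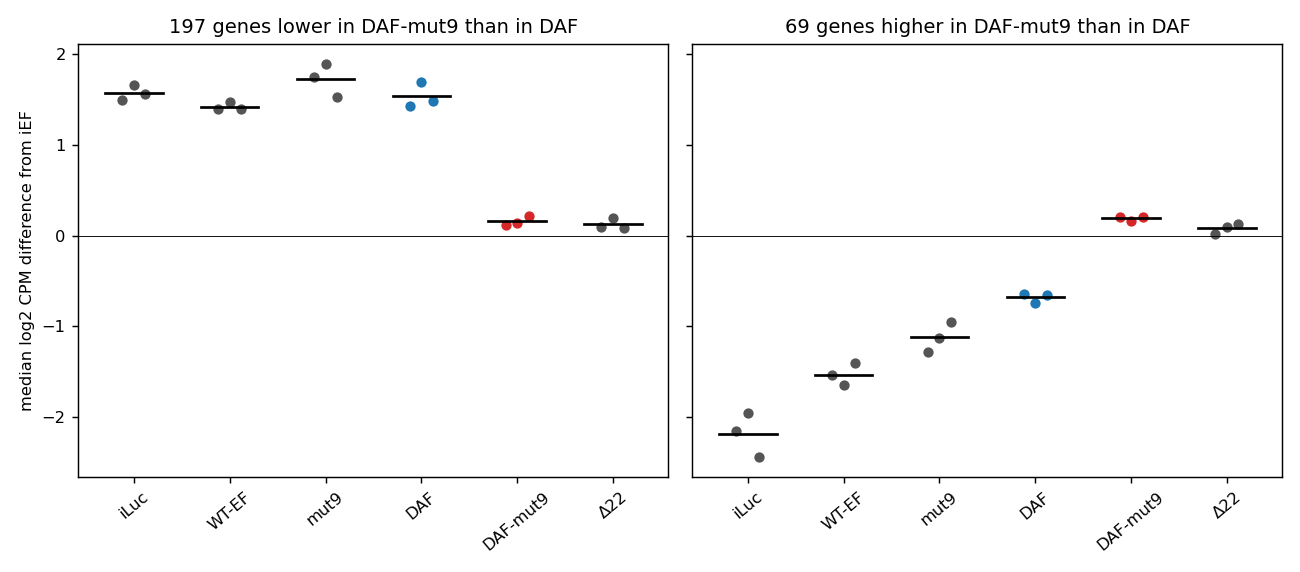
Points are the median log2 CPM difference from iEF over the 197 lower genes (left) and the 69 higher genes (right) in each replicate set, and short lines are the mean of 3 sets. For both lists DAF-mut9 (red) lay near 0 and near Δ22, at 0.16 and 0.12 for lower genes and 0.19 and 0.08 for higher genes, while DAF (blue) lay at 1.54 and -0.68.

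The 36 lower genes that the endogenous fusion represses were taken separately. Their median difference from iEF was -1.81 ± 0.12 in iLuc and -0.79 ± 0.06 in WT-EF, but 0.71 ± 0.18 in mut9 and 1.49 ± 0.32 in DAF, and it was 0.17 ± 0.11 in DAF-mut9. The low position of iLuc is fixed by the class, and the gap between DAF and DAF-mut9 by the call, so these values are a description. For the 135 lower genes that the endogenous fusion activates, iLuc lay at 2.64 ± 0.12, WT-EF at 2.12 ± 0.09, mut9 at 2.18 ± 0.31, DAF at 1.56 ± 0.07 and DAF-mut9 at 0.20 ± 0.05.

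Against depleted cells, DAF called 2172 genes (7.11%), 1023 higher (3.35%) and 1149 lower (3.76%), and DAF-mut9 called 909 (2.98%), 359 higher (1.18%) and 550 lower (1.8%). These comparisons share the iEF libraries with each other and the rescue libraries with DAF-mut9 versus DAF, so their values are given side by side only. The count of DAF-mut9 versus iEF fell to 289 without DAF-mut9 replicate 1, 303 without replicate 2, 335 without replicate 3 and 358 without iEF replicate 3, and that of DAF versus iEF was 1230, 1362 and 1404 without DAF replicate 1, 2 and 3 and 1360 without iEF replicate 3.

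Well-known targets that the fusion activates were among the losses. FCGRT, the neonatal Fc receptor that recycles IgG (chromosome 19, 50010073 to 50029685), was at 32.4, 37.5 and 39.2 CPM in DAF and 9.78, 10.6 and 10.5 CPM in DAF-mut9. The groups were far apart, with a log2 fold change of -1.82 ± 0.18 (adjusted p 5.4e-06), and iLuc reached 110 ± 10.05 CPM. PRKCB, the protein kinase C beta that Ewing sarcoma cells express strongly (chromosome 16, 23847304 to 24231932), was at 128, 164 and 123.4 CPM in DAF and 36.1, 40.8 and 41.9 CPM in DAF-mut9. Its log2 fold change was -1.80 ± 0.20 (adjusted p 7.32e-05), and DAF-mut9 lay next to the 35.3 ± 7.08 CPM of iEF. NR0B1, the orphan nuclear receptor DAX1 (chromosome X, 30322323 to 30327507), was at 19.9, 38.0 and 24.1 CPM in DAF and 5.50, 7.11 and 10.4 CPM in DAF-mut9. DAF replicate 2 was high, the groups still did not overlap, and the log2 fold change was -1.79 ± 0.32 (adjusted p 0.0129). Relative to iEF, where NR0B1 stood at 16.4 ± 6.26 CPM, its log2 fold change was 0.74 with DAF (adjusted p 0.19) and -1.05 with DAF-mut9 (0.0991). The NR0B1 call was lost without DAF-mut9 replicate 1 (adjusted p 0.102), DAF-mut9 replicate 2 (0.113) or DAF replicate 2 (0.07), whereas FCGRT and PRKCB were called in all 13 alternatives.

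GSTM4, a glutathione transferase, lay at 20.2, 15.5 and 22.7 CPM in DAF and 9.27, 10.6 and 10.4 CPM in DAF-mut9. These ranges did not overlap, but the log2 fold change of -0.97 ± 0.27 did not pass (adjusted p 0.162), whereas it passed with DESeq2 (0.016), with no low-count filter (5.34e-08) and when only the 6 libraries were fitted (2.43e-05). NKX2-2, a homeodomain factor needed for transformation, was low in both, at 1.90 ± 0.444 CPM in DAF and 1.65 ± 0.429 CPM in DAF-mut9, and the groups overlapped (log2 fold change -0.23 ± 0.26, adjusted p 0.926). Antisense exons overlap 43.9% of the NKX2-2 exon bases and the strand setting of the counting is not stated, so its value is uncertain.

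Some of the lower genes encode secreted ligands, while others of that kind, such as BMP6 and NRG2, were higher. IGF1, the insulin-like growth factor (chromosome 12, 102789652 to 102875522), was at 21.7, 24.8 and 27.6 CPM in DAF and 3.49, 5.10 and 6.39 CPM in DAF-mut9. Its log2 fold change was -2.31 ± 0.26 (adjusted p 0.000186), and mut9 had 114 ± 26.7 CPM and iLuc 32.6 ± 7.31 CPM. An antisense RNA, HELLPAR, covers 82.5% of the IGF1 exon bases and the strand setting of the counting is not stated, so the IGF1 value is uncertain. APELA, a peptide ligand of the apelin receptor, fell from 3.74, 6.75 and 6.44 CPM in DAF to 0.924, 1.26 and 0.893 CPM (log2 fold change -2.45 ± 0.34, adjusted p 0.000766). RSPO2, a secreted amplifier of Wnt signalling, was at 16.0, 13.1 and 13.4 CPM against 5.24, 4.03 and 3.04 CPM, a log2 fold change of -1.80 ± 0.25 (adjusted p 0.00024). RSPO2 did not pass in iLuc against iEF (0.48, adjusted p 0.126). With the authors' batch-adjusted values and limma, IGF1 (adjusted p 0.287) and APELA (0.371) were not called, and RSPO2 was.

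Other leading lower genes that the endogenous fusion activates have unrelated functions. PHOSPHO1, a phosphatase of bone mineralization (chromosome 17, 47300728 to 47308149), had the smallest adjusted p of the named genes, at 20.7, 19.5 and 21.2 CPM in DAF and 3.49, 4.50 and 3.38 CPM in DAF-mut9 (log2 fold change -2.44 ± 0.18, adjusted p 6.41e-08). TRHDE, an ectoenzyme that degrades thyrotropin-releasing hormone (chromosome 12, 72481046 to 73064538), fell from 27.7, 44.8 and 37.5 CPM to 7.27, 8.97 and 10.5 CPM (-2.03 ± 0.18, adjusted p 2.13e-06). PHOSPHO1 in DAF was at the level of iLuc, 19.4 ± 4.04 CPM, and in DAF-mut9 at that of iEF, 3.58 ± 0.988 CPM. TNNT1, the slow skeletal troponin T, was at 20.4, 50.3 and 33.3 CPM against 4.31, 5.60 and 6.67 CPM (-2.60 ± 0.31, adjusted p 0.000279). CYP4F22, a fatty acid hydroxylase of the cytochrome P450 family, was at 9.96, 20.6 and 15.9 CPM against 1.18, 1.62 and 1.56 CPM (-3.37 ± 0.31, adjusted p 1.73e-05). In each of the 4 genes the lowest DAF library exceeded the highest DAF-mut9 library. ISM2, a secreted isthmin, fell from 5.98, 6.45 and 6.79 CPM to 0.154, 0.357 and 0.809 CPM (-3.97 ± 0.51, adjusted p 0.000611). EXOC3L1, related to the exocyst, fell by 2.14 and LOXHD1, a gene of hair cells, by 2.20 on the log2 scale (adjusted p 9.35e-05 and 0.00129). CYP4F22 (adjusted p 0.1), ISM2 (0.0656) and LOXHD1 (0.24) were not called with the batch-adjusted values and limma.

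A further group was lower in DAF-mut9 although the endogenous fusion does not activate it. MMP9, a gelatinase that degrades matrix (chromosome 20, 44637547 to 44645200), was at 55.5, 248 and 85.5 CPM in DAF and 3.60, 8.97 and 7.81 CPM in DAF-mut9, the largest change among the leading lower genes (-4.11 ± 0.67, adjusted p 0.0115). MMP9 was at 2.95 ± 0.632 CPM in iLuc, 6.86 ± 0.823 CPM in iEF, 37.8 ± 10.9 CPM in mut9, and at 1.28 CPM in WT-EF and 9.99 CPM in Δ22. The DAF replicates spread widely. The MMP9 call was lost without DAF-mut9 replicate 1 (adjusted p 0.0914) or 2 (0.1), when only the 6 libraries were fitted (0.0606) and with the batch-adjusted values (0.0575), and antisense exons overlap 18.4% of its exon bases. ABI3BP, a matrix protein, was at 90.4, 159 and 90.9 CPM in DAF and 23.0, 23.4 and 32.2 CPM in DAF-mut9 (-2.08 ± 0.31, adjusted p 0.00375), while iLuc had 4.03 ± 0.592 CPM and iEF 32.1 ± 13.8 CPM. GMFG, a regulator of actin branching, was at 5.21, 7.14 and 6.63 CPM against 1.28, 1.45 and 1.53 CPM (-2.14 ± 0.26, adjusted p 3.9e-05), with 0.0653 ± 0.0305 CPM in iLuc. Both were thus repressed by the endogenous fusion, above iEF in DAF, and back near iEF in DAF-mut9. IL2RG, the shared chain of several interleukin receptors, fell by 2.23 on the log2 scale (adjusted p 0.0136), a call lost without DAF-mut9 replicate 1 (0.103) or 2 (0.11). Exons of another gene on the same strand overlap 51.3% of the IL2RG exon bases, so its value is uncertain. ABI3BP was not called when only the 6 libraries were fitted (adjusted p 0.157), nor was GMFG with the batch-adjusted values (0.0959).

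**Figure D4:**
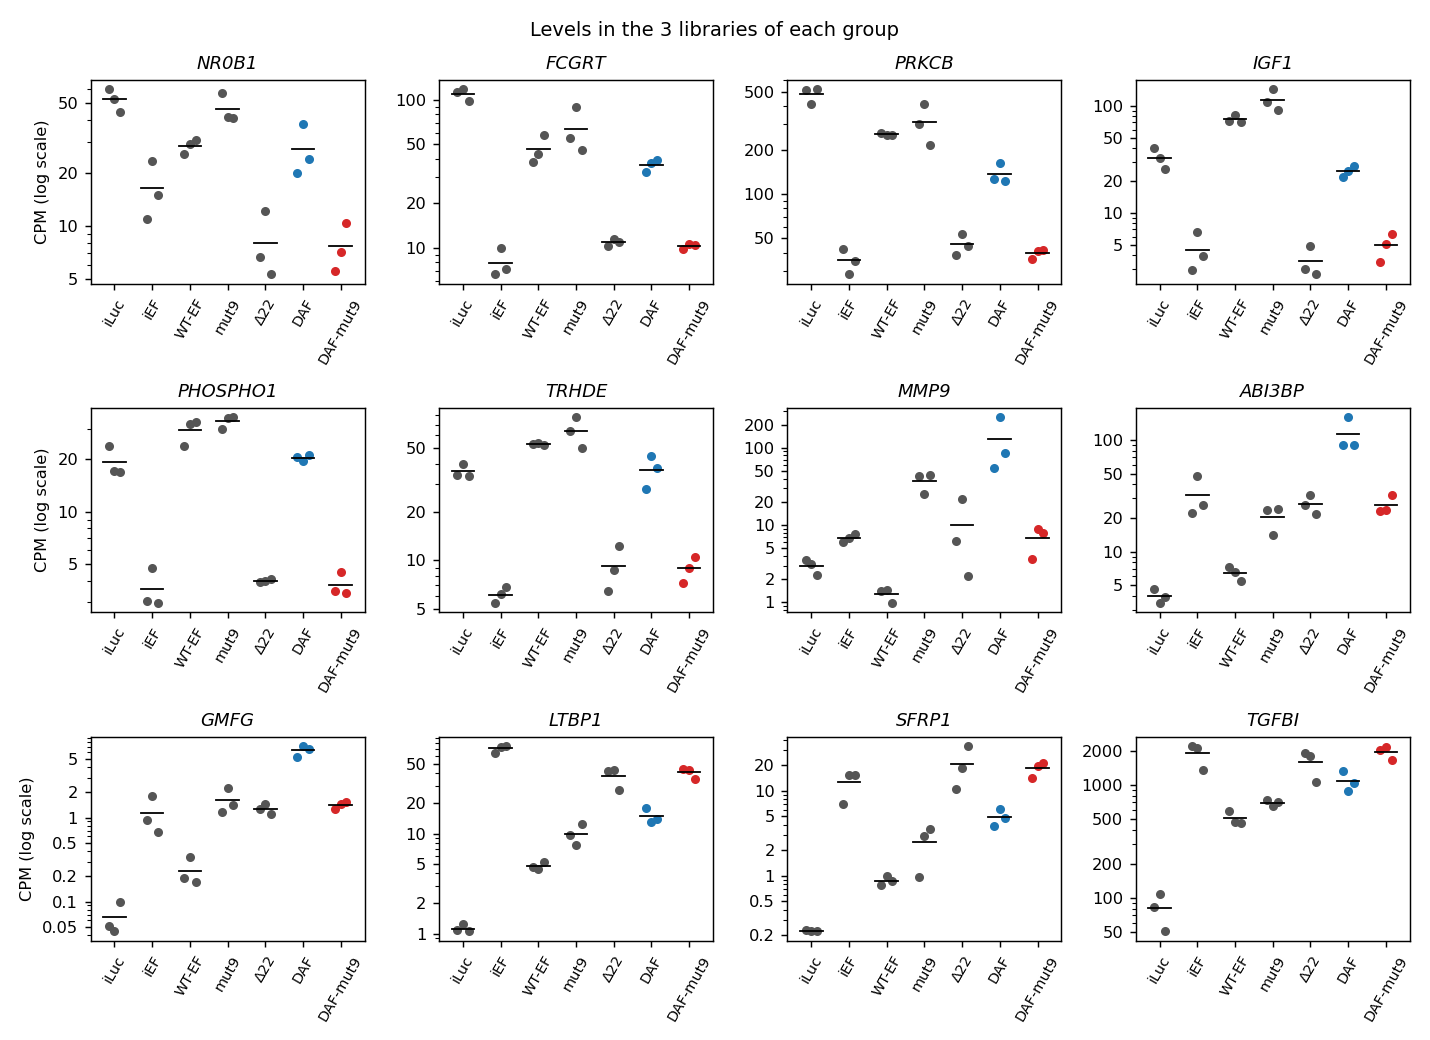
Each panel plots CPM (log y axis) of 1 gene in the 3 libraries of each of 7 groups, with a short line at the mean, DAF in blue and DAF-mut9 in red. For the 9 lower genes from NR0B1 to GMFG every DAF library lies above every DAF-mut9 library, and for LTBP1, SFRP1 and TGFBI every DAF library lies below.

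Genes of excitable membranes were among the losses. GRIK2, a kainate receptor subunit (chromosome 6, 101410577 to 102529497), was at 51.2, 81.1 and 63.4 CPM in DAF and 26.0, 27.7 and 29.5 CPM in DAF-mut9 (-1.22 ± 0.13, adjusted p 1.04e-05). GRIA2, an AMPA receptor subunit, was at 7.01, 5.03 and 2.88 CPM against 0.411, 0.768 and 0.670 CPM (-3.06 ± 0.42, adjusted p 0.000286). GABRA4, a GABA-A receptor subunit, rested on 33, 141 and 76 counts in DAF and on 0, 4 and 7 counts in DAF-mut9 (-4.54 ± 0.53, adjusted p 2.49e-05). Only these 3 of 58 neurotransmitter receptor genes tested (5.17%) were called, against 0.871% of all genes, and the median of the list was -0.12 against 0.00 over all genes. Of 73 potassium channel genes, KCNN1, a calcium-activated channel (7.04, 8.80 and 8.94 CPM against 2.13, 3.51 and 3.07 CPM, -1.51 ± 0.24, adjusted p 0.00156), and KCNA2 (-0.96, 0.0153) were lower, and KCNN4 (0.98, 0.0101) was higher. KCNA2 was lost without DAF-mut9 replicate 2 or 3 or DAF replicate 2 or 3 (adjusted p up to 0.148) and with no replicate block (0.196), and KCNN4 without DAF-mut9 replicate 1 or 2 or DAF replicate 2 or 3 (up to 0.128) and with no replicate block (0.0565). Of 47 synaptic vesicle and neuropeptide genes only SV2B, a synaptic vesicle glycoprotein, was called (-3.69 ± 0.59, adjusted p 0.00483), and its call was lost without DAF-mut9 replicate 1 (0.059) or 2 (0.0662). None of 62 calcium, sodium and other cation channel genes passed. The share called was 4.11% of the potassium channel genes and 2.13% of the synaptic vesicle and neuropeptide genes, against 0.871% of all genes.

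Genes higher in DAF-mut9 were mostly ones that the endogenous fusion represses, at several of which DAF also lay below depleted cells. LTBP1, which stores latent TGF-beta in matrix (chromosome 2, 33172020 to 33624576), was at 17.9, 13.1 and 13.9 CPM in DAF and 43.7, 43.6 and 35.2 CPM in DAF-mut9 (log2 fold change 1.45 ± 0.18, adjusted p 7.72e-05). Depleted cells had 71.0 ± 5.81 CPM and iLuc 1.12 ± 0.100 CPM of LTBP1, and its log2 fold change over iEF was -2.26 with DAF (adjusted p 7.65e-08) and -0.80 with DAF-mut9 (0.0135). SFRP1, a secreted Wnt inhibitor, was at 3.85, 6.15 and 4.72 CPM against 14.3, 19.4 and 21.3 CPM (1.89 ± 0.25, adjusted p 0.000203). DAF-mut9 had SFRP1 at 18.3 ± 3.64 CPM, beside 12.6 ± 4.93 CPM in iEF. COL13A1, a transmembrane collagen (chromosome 10, 71561636 to 71724031), was at 51.2, 25.9 and 40.7 CPM against 93.6, 75.3 and 83.2 CPM (1.12 ± 0.19, adjusted p 0.0037). FRMD5, a FERM-domain protein at cell junctions, was at 9.47, 11.1 and 15.2 CPM against 24.1, 22.9 and 26.9 CPM (1.06 ± 0.17, adjusted p 0.00118). COL13A1 did not differ from iEF with DAF (-0.26, adjusted p 0.509) and was above it with DAF-mut9 (0.86, 0.0167). In all 4 genes the groups were separate, and COL13A1 and FRMD5 kept their calls in all 13 alternatives. LTBP1 lost its call only with the batch-adjusted values (adjusted p 0.487), and SFRP1 with those (0.381) and with no replicate block (0.0623).

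The other 11 higher genes that met the size and level rule were all repressed by the endogenous fusion. GALNT5, which starts mucin-type O-glycans (5.57, 4.85 and 5.19 CPM against 13.4, 14.2 and 11.1 CPM), rose by 1.30 ± 0.23 (adjusted p 0.00388). GLDC, the glycine decarboxylase (3.47, 1.93 and 2.63 CPM against 6.70, 6.59 and 6.92 CPM), rose by 1.36 ± 0.24 (adjusted p 0.00375). ABTB3 rose by 1.23 and SAMD3 by 1.22 (adjusted p 0.000311 and 0.00167), and both were lost with no replicate block (0.0741 and 0.0506). BAALC, CDH6, NRG2, MEGF10, SEMA7A, MYH15 and NGEF had log2 fold changes of 1.00 to 1.51 and an adjusted p of 0.00615 to 0.0389. CDH6, a cadherin of the developing kidney, was the least orderly, at 21.9, 13.0 and 27.3 CPM against 57.2, 54.4 and 37.1 CPM. Without 1 library several of these calls were lost. GALNT5 was lost without DAF replicate 2 (adjusted p 0.0558), and GLDC (0.0576) and MYH15 (0.088) without DAF-mut9 replicate 2. CDH6 was lost when only the 6 libraries were fitted (0.482) and without DAF-mut9 replicate 1 or 2 or DAF replicate 1 or 2 (adjusted p up to 0.191), SEMA7A without the same libraries (up to 0.191), BAALC without DAF-mut9 replicate 1 or 3 or DAF replicate 1 or 2 (up to 0.285), and NGEF without DAF-mut9 replicate 1 or 2 or DAF replicate 2 or 3 (up to 0.0692). NRG2 was lost without any DAF-mut9 library or DAF replicate 1 or 2 (up to 0.204), and MEGF10 without any 1 of the 6 libraries (0.0913 to 0.292). With no replicate block BAALC (0.397), MEGF10 (0.213), MYH15 (0.074) and NRG2 (0.218) were also lost.

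The 3 canonical repressed targets were not called. TGFBR2, the type II TGF-beta receptor, was at 195, 226 and 210 CPM in DAF and 206, 216 and 200 CPM in DAF-mut9, with fully overlapping ranges (-0.02 ± 0.18, adjusted p 0.995). IGFBP3 and LOX, an IGF-binding protein and a collagen cross-linking enzyme, differed by 0.61 ± 0.27 (adjusted p 0.561) and 0.37 ± 0.30 (0.87). These misses do not show equal levels. When only the 6 libraries were fitted, IGFBP3 (adjusted p 0.000375) and LOX (0.0053) passed, and IGFBP3 also passed with no low-count filter (6.89e-07). In the list of 28 fusion-repressed targets LTBP1 was higher and PTGER3, a prostaglandin E receptor, was lower (-0.74 ± 0.13, adjusted p 0.00425), and the median was 0.04 against 0.00 over all genes. Of that list 7.14% was called, against 0.871% of all genes. PTGER3 was activated by the endogenous fusion in these libraries, and its call was lost without DAF-mut9 replicate 1 (0.0705) or 2 (0.0634) or DAF replicate 1 (0.0568), and when only the 6 libraries were fitted (0.0546).

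The gene lists, chosen with earlier results of these data known, placed the losses. Of 36 fusion-activated targets 13 were lower and 0 higher, 36.1% called against 0.871% of all genes, with a median log2 fold change of -0.43 against 0.00, and 28 of 36 lay below 0. By size the leading members were IGF1, LOXHD1, FCGRT, PRKCB, NR0B1, KCNN1, NPY1R (-1.33, adjusted p 0.0183), a neuropeptide Y receptor, and UGT3A2 (-1.22, 0.000685), a glycosyltransferase at 43.7, 50.1 and 53.1 CPM in DAF and 18.5, 21.2 and 23.2 CPM in DAF-mut9. NPY1R was lost without any 1 of the 6 libraries (adjusted p 0.0511 to 0.118), and UGT3A2 only with the batch-adjusted values (0.347). Of 33 endothelial-type ETS targets, RASIP1, a Rap and Ras effector of vessel lumens (1.69, 4.04 and 3.16 CPM against 0.334, 0.521 and 0.530 CPM, -2.65 ± 0.32, adjusted p 3.93e-05), FLT4, the lymphatic VEGF receptor (-2.36, 0.00161), and EGFL7 (-0.90, 0.0263) were lower and none higher. Of that list 9.09% was called, against 0.871% of all genes, and its median was -0.28. EGFL7 was lost without any 1 of the DAF-mut9 libraries or DAF replicate 3 (adjusted p 0.112 to 0.285), and EGFL7 and FLT4 with no replicate block (0.132 and 0.152).

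Matrix and adhesion lists moved both ways, with 4.17% to 6.98% of each list called against 0.871% of all genes. No list was tested as a set. The 0.871% set beside the lists also covers genes of low level, which are called less often. Of the 30549 tested genes 14250 had a mean of at least 1 CPM, as did 168 of the 197 lower and 62 of the 69 higher genes. No list share given here was matched for level. Of 43 collagens COL13A1 and COL14A1 were higher and COL8A1 (-0.75, adjusted p 0.0128) was lower, with a list median of 0.22. COL14A1, a fibril-associated collagen, had 2, 3 and 6 counts in DAF and 41, 54 and 32 counts in DAF-mut9 (3.33 ± 0.51, adjusted p 0.000719). Of 44 matrix proteases and inhibitors MMP9 and the aggrecanase ADAMTS4 (-0.99, adjusted p 0.037) were lower and SERPINE2, an inhibitor of serine proteases, was higher, at 973, 709 and 777 CPM against 1274, 1569 and 1198 CPM (0.71, 0.0201). Of 48 other matrix genes ELN, the elastin gene (-0.95, 0.0199), was lower and TGFBI, a TGF-beta-induced adhesion protein (0.85, 0.0494), was higher. Of 44 integrin and focal adhesion genes the tensin TNS1 (-0.75, 0.00739) was lower and ITGA10 (0.93, 0.0308) was higher. Apart from COL13A1 and COL14A1, the calls of this group depended on single libraries. The adjusted p reached 0.271 for TGFBI and 0.213 for ITGA10 (both lost without any 1 of the 6), 0.225 for ADAMTS4 (lost without all but DAF replicate 3), 0.198 for SERPINE2 (lost without DAF-mut9 replicate 1 or 2 or DAF replicate 2 or 3), 0.143 for ELN (lost without all but DAF replicate 2), 0.116 for COL8A1 (lost without all but DAF replicate 2) and 0.0698 for TNS1 (lost without DAF-mut9 replicate 3). With no replicate block TGFBI (0.268) and ITGA10 (0.145) were lost too.

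Signalling and guidance lists held few calls each, 2.38% to 5.71% of their genes against 0.871% of all genes. Of 70 axon guidance genes the receptor EPHB3 (3.93, 5.94 and 4.28 CPM against 1.44, 0.659 and 1.03 CPM, -2.17 ± 0.34, adjusted p 0.00113), the semaphorin SEMA5B (-2.15, 0.0458) and the Slit receptor ROBO2 (-1.08, 0.0118) were lower and SEMA7A was higher. Of 52 Wnt pathway genes RSPO2 was lower and SFRP1 higher, and of 55 TGF-beta and BMP genes LTBP1 and the ligand BMP6 (0.89, 0.0122) were higher. Of 38 developmental transcription factors PAX7 (-1.34, 0.0359) was lower and the Hedgehog effector GLI2 (0.75, 0.0494) higher. ETV1 (0.82, 0.0109), of 27 ETS factors, and the phosphatase DUSP4 (0.68, 0.0392), of 35 FGF and MAPK feedback genes, were higher, and the interleukin-1 coreceptor IL1RAP (-0.53, 0.0433), of 42 chemokine and cytokine genes, was lower. ETV1 was at 57.3, 34.2 and 40.5 CPM in DAF, 91.3, 69.4 and 71.1 CPM in DAF-mut9 and 74.8 ± 15.4 CPM in iEF. EPHB3 was called in all 13 alternatives. SEMA5B, DUSP4 and IL1RAP were lost without any 1 of the 6 libraries (adjusted p up to 0.319, 0.21 and 0.311), GLI2 without all but DAF replicate 1 (up to 0.413) and PAX7 likewise (up to 0.25). ROBO2 was lost without any DAF-mut9 library or DAF replicate 1 (up to 0.0848), BMP6 without DAF-mut9 replicate 1 or DAF replicate 2 or 3 (up to 0.126) and ETV1 without DAF-mut9 replicate 1 or 3 or DAF replicate 2 (up to 0.102). With no replicate block SEMA5B (0.109), BMP6 (0.169), GLI2 (0.21), ETV1 (0.128), DUSP4 (0.0559) and IL1RAP (0.38) were also lost.

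No member was called in the lists of contractile and SRF-target genes (0 of 35, median 0.06), interferon-stimulated genes (0 of 41, median 0.22), DNA replication and mitosis (0 of 48, median 0.20) or cholesterol and fatty acid synthesis (0 of 31, median 0.03). Over all genes 0.871% were called. At that share lists of this size can hold no call, so these counts do not set the lists apart. Of the 48 replication and mitosis genes only 1 lay below 0, and the medians in replicate sets 1, 2 and 3 were 0.11, 0.48 and 0.08. CENPF, a kinetochore protein, and MKI67, the proliferation marker, had the highest levels in that list, with log2 fold changes of 0.51 ± 0.17 (adjusted p 0.299) and 0.36 ± 0.23 (0.79). When only the 6 libraries were fitted both passed (adjusted p 0.000227 and 0.00692), and CENPF passed with no low-count filter (0.00132).

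GGAA repeats near the starts of the genes were read from GRCh37. The window ran from 5 kb before to 1 kb after each annotated start, and the motif was GGAA repeated without a gap on either strand (TTCC on the other). Runs in the reference can differ in length from those of A673 cells. The sequences below are shown because they lie near genes that DAF kept above DAF-mut9, with SERPINE2, which was higher in DAF-mut9, for contrast. They are a selection, and other named genes also have runs, among them GSTM4, which was not called. Capitals mark the longest run and each line reads 5′ to 3′ on the strand that carries GGAA.
NR0B1: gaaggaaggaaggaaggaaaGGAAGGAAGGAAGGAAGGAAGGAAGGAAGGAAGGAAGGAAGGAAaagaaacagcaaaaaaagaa
FCGRT: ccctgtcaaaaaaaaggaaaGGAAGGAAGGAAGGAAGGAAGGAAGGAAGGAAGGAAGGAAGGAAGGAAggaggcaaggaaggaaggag
PHOSPHO1: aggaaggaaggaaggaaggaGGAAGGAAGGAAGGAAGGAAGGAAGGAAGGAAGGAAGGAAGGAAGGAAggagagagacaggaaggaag
IGF1: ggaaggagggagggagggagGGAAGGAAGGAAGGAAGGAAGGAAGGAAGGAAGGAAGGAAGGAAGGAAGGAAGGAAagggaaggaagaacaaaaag
TRHDE: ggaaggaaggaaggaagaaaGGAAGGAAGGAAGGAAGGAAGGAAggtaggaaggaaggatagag
KCNN1: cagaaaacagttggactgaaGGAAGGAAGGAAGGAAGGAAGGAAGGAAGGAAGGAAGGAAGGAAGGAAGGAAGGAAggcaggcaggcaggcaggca
GRIK2: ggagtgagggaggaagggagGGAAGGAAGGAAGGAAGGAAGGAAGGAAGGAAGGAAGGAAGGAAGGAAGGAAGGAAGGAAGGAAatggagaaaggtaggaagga
ISM2: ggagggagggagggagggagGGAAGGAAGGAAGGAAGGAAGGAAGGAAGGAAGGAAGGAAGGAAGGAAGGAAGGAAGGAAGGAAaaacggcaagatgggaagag
SERPINE2: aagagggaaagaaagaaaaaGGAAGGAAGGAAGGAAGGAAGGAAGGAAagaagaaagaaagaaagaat

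Most of these runs carried further broken repeats on their flanks. Coordinates are those of the run in capitals, without the flanks shown in lower case, and distances are from the nearest annotated start, negative before it. The NR0B1 run has 11 units at chrX:30328875-30328918 on the minus strand, upstream at -1389 bases. The FCGRT run has 12 units at chr19:50014764-50014811 (plus strand), within an intron of the gene at -845 bases from another start. PHOSPHO1 has 12 units at chr17:47305612-47305659 (minus strand), in an intron at 869 bases, and IGF1 has 14 units at chr12:102809322-102809377 (minus strand), in an intron at 175 bases. The TRHDE run of 6 units lies upstream at chr12:72478636-72478659 (minus strand), at -2399 bases, and that of KCNN1, with 14 units, in an intron at chr19:18076835-18076890 (minus strand), at -1054 bases. GRIK2 has 16 units at chr6:102369952-102370015 (minus strand), in an intron at -1850 bases, and ISM2 has 16 units at chr14:77964113-77964176 (plus strand), in an intron at 865 bases. From the most upstream start of the gene these intronic runs lie further in, some of them deep. That distance was 959406 bases for GRIK2, 66173 for IGF1 and 14760 for KCNN1. It was 4714 bases for FCGRT, 2514 for PHOSPHO1 and 1015 for ISM2. SERPINE2 has 7 units at chr2:224908795-224908822 (minus strand), upstream at -4773 bases. GSTM4, which was not called and whose sequence is not shown, has 10 units at chr1:110196891-110196930 (plus strand), upstream at -1811 bases.

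The share of genes with such runs differed between the lower and higher genes. A run of at least 4 units was found for 39 of 193 lower genes with a place in the annotation (20.2%), 5 of 67 higher genes (7.46%) and 1218 of 29538 tested genes (4.12%). It was found for 35 of 133 genes (26.3%) that were both lower and activated by the endogenous fusion, against 304 of 5412 activated genes that were not lower (5.62%) and 332 of 6651 repressed genes (4.99%). Runs of at least 10 units were found for 25 lower genes (13.0%), 1 higher gene (1.49%) and 1.16% of all tested genes. Lower genes have a median of 6 annotated starts and all tested genes 3, so their windows are wider; among protein-coding genes, with a median of 6 starts in either set, the shares were 19.2% and 5.28%. Of the 39 runs 20 lie in introns, 16 upstream, 2 in exons and 1 downstream. None of the 15 leading higher genes had a run of 4 or more, and 5 of the 15 leading lower genes (ISM2, APELA, PHOSPHO1, IGF1 and TRHDE) had one. The extension from the named genes to all called genes was made after values had been seen, no test was run on it, and a run in this window is not evidence of binding.

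**Figure D5:**
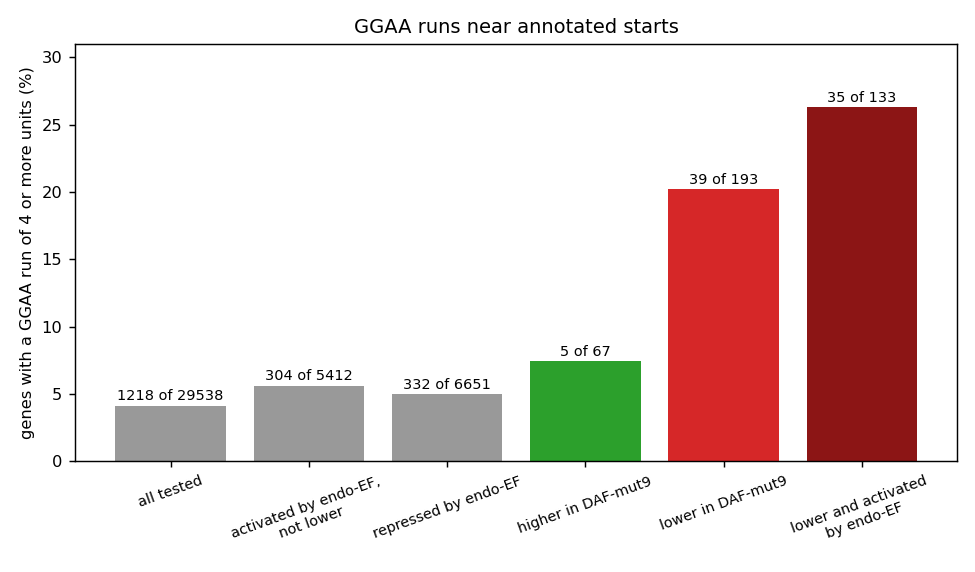
Bars give the percentage of genes with a GGAA run of 4 or more units within 5 kb before to 1 kb after an annotated start, with the counts above each bar. Lower genes reach 20.2% and those also activated by the endogenous fusion 26.3%, against 4.12% of all tested genes.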

How the data were processed

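RNA from 21 A673 libraries (7 groups of 3) was sequenced by the study as paired ends on an Illumina HiSeq after ScriptSeq library preparation. The authors aligned reads to hg19 with STAR and deposited raw counts per Ensembl gene made with htseq-count (intersection-strict). The deposited record gives STAR 2.5.1b, and the paper names another release. Neither the gene annotation used for counting nor its strand setting is given in the sources used here. The authors also deposited signal values adjusted for batch effects with ComBat, used here as an alternative only. Their deposited tables of log2 fold changes and p-values were not used.

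Raw counts were analysed with edgeR 4.0.16 in R 4.3.3. The table lists 57820 genes, 48035 with any count. Testing was limited to the 30549 whose mean over libraries reached 1 count. After TMM scaling, 1 robust quasi-likelihood fit over the 21 libraries modelled group plus replicate set, leaving 12 residual degrees of freedom. Tests were two-sided with Benjamini-Hochberg adjustment over all genes tested and a threshold of 0.05. The replicate set was a block because each set was a separate knockdown and rescue experiment, and deviations of same-numbered DAF and DAF-mut9 libraries correlated at 0.541, 0.172 and 0.135. Unlike-numbered pairs gave -0.478 to 0.290, the highest (DAF 2 with DAF-mut9 3) above 2 of the matched pairs. Log2 CPM used a prior count of 2. About 32.0 to 38.9 counts stood for 1 CPM in the 6 libraries.

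The comparison and the gene lists were chosen with earlier results of these data known. Named genes were FLI1, EWSR1, up to 15 genes each way by size of change (a symbol, adjusted p below 0.05, at least 5 CPM in either group, the same direction in all 3 sets), called members of fixed lists (or up to 2 with the highest level where none was called, not all of which are shown), and 7 known targets. SLAIN1 and TMEM100 were added with their values in view. 1 gene that met the rule is not reported here. Positions come from GENCODE 44 lifted to GRCh37, which matched 29538 tested genes. Other packages were limma 3.58.1 and DESeq2 1.42.0. The model was tested on simulated counts, and the alternatives are described in the closing section.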

Additional observations from a re-analysis of the deposited data

How the results depend on the processing

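With no replicate block DAF-mut9 versus DAF had 154 calls (21 higher, 133 lower) in place of 266, and DAF-mut9 versus iEF 574, with the pairing by replicate number dropped. Dropping it moved no count of iLuc versus iEF, WT-EF versus iEF or DAF versus iEF by more than 1.5 times. DESeq2 gave 519 and 1508 calls in DAF-mut9 versus DAF and DAF-mut9 versus iEF, no low-count filter 912 and 2243 (and 3289 for DAF against iEF), the 6 libraries alone 1479, and a 2-fold requirement 166 for DAF-mut9 versus DAF, 7876 for iLuc, 4956 for WT-EF, 1215 for DAF and 530 for DAF-mut9 against iEF. RLE normalization (263), filterByExpr (287) and batch-adjusted values with limma (192) stayed within 1.5 times of 266. With the latter MMP9, ISM2, CYP4F22, APELA, IGF1, LOXHD1, GMFG, SFRP1, LTBP1, SAMD3, NRG2, SEMA7A, NGEF, NPY1R, UGT3A2, GLI2, PAX7, KCNA2, COL8A1, SERPINE2, TGFBI, ITGA10, IL1RAP, DUSP4 and BMP6 were not called. Fits short of 1 library, and so with fewer samples, gave 110 to 185 calls for DAF-mut9 versus DAF, 289 to 1045 for DAF-mut9 and 1230 to 2067 for DAF against iEF. Of the called genes, 79 of 197 lower and 9 of 69 higher were called in all 6 such fits. The percentage of lower genes activated by the endogenous fusion was 51.1% with no low-count filter and 67.2% to 77.3% with 1 library left out, and that of higher genes repressed by it 70.6% to 90.6%; these recomputed shares were chosen after seeing the data. With 2-fold classes the median of activated genes was -0.088 and the median of repressed genes 0.0995. Of 1035 values of 80 named genes under alternatives, 846 kept direction and side of the threshold, 180 lost it, 9 gained it and 0 reversed. Why the counts differ between tools was not tested. DESeq2 gave no adjusted p for 10069 genes, and genes of a few counts in either group limit what the depth can show.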

Other observations

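Several genes known from blood and immune cells were lower in DAF-mut9, although no gene of the blood marker list was called. These genes were chosen after their values were seen and carry no test as a group. Of 7 GIMAP genes tested, which encode GTPases of lymphocytes and lie side by side on chromosome 7, 4 were lower, beside 0.645% of all genes. They were GIMAP6 (3.85 to 5.94 CPM in DAF, 0.616 to 0.809 CPM in DAF-mut9), GIMAP5 (3.38 to 5.50 against 0.502 to 0.933 CPM), GIMAP8 (1.64 to 5.73 against 0.437 to 1.34 CPM) and GIMAP4 (0.813 to 1.24 against 0.137 to 0.279 CPM). Other genes overlap 38.7% of the GIMAP5 exon bases, GIMAP1 among them, so the GIMAP5 value is uncertain. All 4 were repressed by the endogenous fusion, and GIMAP6 averaged 4.71 CPM with mut9, 0.345 CPM in depleted cells and 0.0549 CPM in iLuc. GIMAP8 averaged 2.11 CPM in depleted cells, within its range in DAF. The best expressed member, GIMAP2, was not called, at 20.5 to 22.4 CPM in DAF and 13.5 to 15.3 CPM in DAF-mut9. JAK3, a kinase that signals with IL2RG, was at 11.9 ± 0.967 CPM in DAF and 4.86 ± 0.432 CPM in DAF-mut9 (SD, n = 3), a log2 fold change of -1.29 with an adjusted p of 0.00615 by edgeR's quasi-likelihood test, and JAK1 fell by 0.42 (0.0282), the only called genes of the 12 tested in a family of JAK, TYK2 and STAT genes that includes the antisense RNA STAT4-AS1.

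Some lower genes are neighbours within 100 kb, which is given as a description without a share over all genes. Several such pairs overlap on opposite strands (ARRB1, DLG2, TRHDE and FEZF1 with antisense RNAs), and since the strand setting is not stated they may count the same reads. The metalloreductase genes STEAP1 (81.9 to 98.3 CPM in DAF, 41.6 to 49.0 CPM in DAF-mut9) and STEAP2 (106 to 127 against 42.4 to 44.3 CPM) are neighbours on chromosome 7, while STEAP3 was not called (log2 fold change 0.36, adjusted p 0.802). The neuropeptide Y receptor genes NPY1R and NPY5R are neighbours on chromosome 4 with 528 exon bases in common on opposite strands, and NPY5R fell from 4.07 to 5.61 CPM to 1.10 to 1.59 CPM. Other pairs were FCGRT with SLC17A7 and TNNT1 with TNNI3.

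SPP1, the secreted matrix protein osteopontin, was at 18.1, 3.92 and 7.76 CPM in DAF and 89.8, 53.3 and 47.8 CPM in DAF-mut9. Its log2 fold change of 2.83 narrowly missed the threshold (adjusted p 0.0554), and SPP1 varied widely in iEF (122 ± 69.1 CPM). The 7SL-related pseudogene RN7SL5P was at 924 CPM in DAF replicate 2 and at 1.14 to 9.52 CPM in the other 5 libraries, and was not called.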
